A study of Oryza sativa Indica Group with 6 samples.

Results

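RPL11, RPL30, RPL9, QM1 and RPS4 are 5 of the 17905 rice genes that the array's probe sets name, and they encode proteins of the cytosolic ribosome. They were taken as all probe sets mapped to exactly 1 of these genes, which gave 9 of the 57258 probe sets on the array: 1 each for RPL11 (LOC4338077), RPL30 (LOC4324441) and RPL9 (LOC4347422), 2 for RPS4 (LOC4328016) and 4 for QM1 (LOC4337928). The genes were chosen from their signals in comparisons of the same 6 arrays. Their differences between lines are therefore given as a description, without p-values, and counts of them past a threshold are not tests.

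The samples were total RNA of seedlings from 3 T-DNA insertional mutant lines of Basmati rice, OsPE, Osoc and Ossl. Seedlings of every line were collected 15 days after germination under optimal growing conditions, and each line had 2 biological replications, 1 array each. All 3 groups carry an insertion, each group is 1 line, and plants without an insertion were not analysed here. No source used here gives the insertion sites or what the line names stand for.

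A cytosolic ribosome is built from a small and a large subunit, each a set of mostly single-copy proteins assembled on ribosomal RNA. The small subunit reads the messenger RNA and the large subunit joins the amino acids. Because the proteins are needed in equal numbers, their genes are usually expressed together, at high levels and most of all in growing tissue, and plants often keep several gene copies for 1 protein.

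Each value is a signal on a linear scale, with arrays scaled by the authors to a common mean, and it is in arbitrary units that allow comparison of 1 probe set between arrays but not of different probe sets. Median signals lay between 37.3 and 42.8, and arrays of 1 line correlated at 0.972 to 0.976 across probe sets, against 0.962 to 0.969 for arrays of different lines. Of the 3 markers of green tissue 2 were bright, RBCS at 31645 to 42458 and CAB2R at 47934 to 62768, while a second small-subunit gene of Rubisco, RBCS1, was near the median at 30.2 to 49.2. Of the root markers Lsi1 was at 1411 to 1673, NRAMP5 and RAI1 were at most 76.3, and Lsi2 was at most 16.6, below the filter. Of the grain markers GLUA2 was at 1087 to 1392 and WX1 at 249 to 437, RAG2 reached 151.1, and GLUA1, GLUA3, RAG1 and RP5 at most 32.6. The summed level of the 5 tested grain markers was 1947 to 2019 in OsPE, 1533 to 1598 in Osoc and 1587 to 1591 in Ossl. That of the 3 tested root markers was 1639 to 1769, 1585 to 1619 and 1478 to 1552 in the same order, and that of the 3 green markers 85189 to 86513, 80338 to 83565 and 87092 to 105259. The part of tissue makeup in the results was not tested. In such bulk samples fewer cells of a type and less RNA per cell cannot be told apart.

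Among the large-subunit genes, RPL11 encodes a protein that joins the subunit together with RPL5 and a small ribosomal RNA. Its signal was 6661 and 6826.5 on the OsPE arrays, 10333 and 10562 on the Osoc arrays, and 8875.5 and 8416 on the Ossl arrays. The 3 lines did not overlap, with Osoc highest, Ossl between and OsPE lowest. On the log2 scale of signal + 16, which is used for every difference here, Osoc was 0.63 above OsPE, a fold of 1.55, Ossl was 0.36 above OsPE, and Ossl was 0.27 below Osoc. The standard error (SE) of each of these differences was 0.06, from limma's fit with 2 arrays per line.

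RPL30, whose yeast counterpart also binds its own transcript, read 4973 and 4879 in OsPE, 7529 and 7843 in Osoc, and 7118.5 and 7610.2 in Ossl. Both other lines lay above OsPE on all arrays, while Osoc and Ossl overlapped. The difference from OsPE was 0.64 ± 0.06 (SE) for Osoc and 0.58 ± 0.06 for Ossl, and Ossl differed from Osoc by -0.06 ± 0.06. Among the 24 cytosolic ribosomal protein genes described further on, RPL30 had the largest log2 difference from OsPE in Ossl. In Osoc RPL30 and RPL11 lay within their errors of each other, and RPL11 was the higher without OsPE replicate 2 (0.65 against 0.63) or without Osoc replicate 2 (0.6146 against 0.6105).

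RPL9 encodes a large-subunit protein as well. It read 10101 and 9984.5 in OsPE, 13179 and 14534 in Osoc, and 12887 and 13217 in Ossl. As for RPL30, the Osoc and Ossl arrays overlapped and all 4 lay above OsPE. Osoc was 0.46 ± 0.06 (SE) and Ossl 0.38 ± 0.06 above OsPE, and Ossl differed from Osoc by -0.08 ± 0.06. The probe set of RPL9 ends in _s_at, a suffix the manufacturer gives to sets whose probes are shared by more than 1 transcript, so its signal may hold RNA of a related copy.

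RPS4, the only small-subunit gene of the 5, was read by 2 probe sets. On the brighter one its signal was 7244.5 and 7373 in OsPE, 10392 and 10627 in Osoc, and 8131 and 9077 in Ossl. On the dimmer one, an _x_at set, it was 3008.5 and 3051 in OsPE, 4986 and 4420.4 in Osoc, and 4015 and 4179 in Ossl. Both probe sets gave the order OsPE, Ossl, Osoc with no overlap. The log2 differences of Osoc from OsPE were 0.52 and 0.63, those of Ossl from OsPE 0.23 and 0.43, and those of Ossl from Osoc -0.29 and -0.20, each with an SE of 0.06 on the brighter and 0.07 on the dimmer set. The 2 probe sets differed from each other by at most 0.20 in a comparison.

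**Figure D1:**
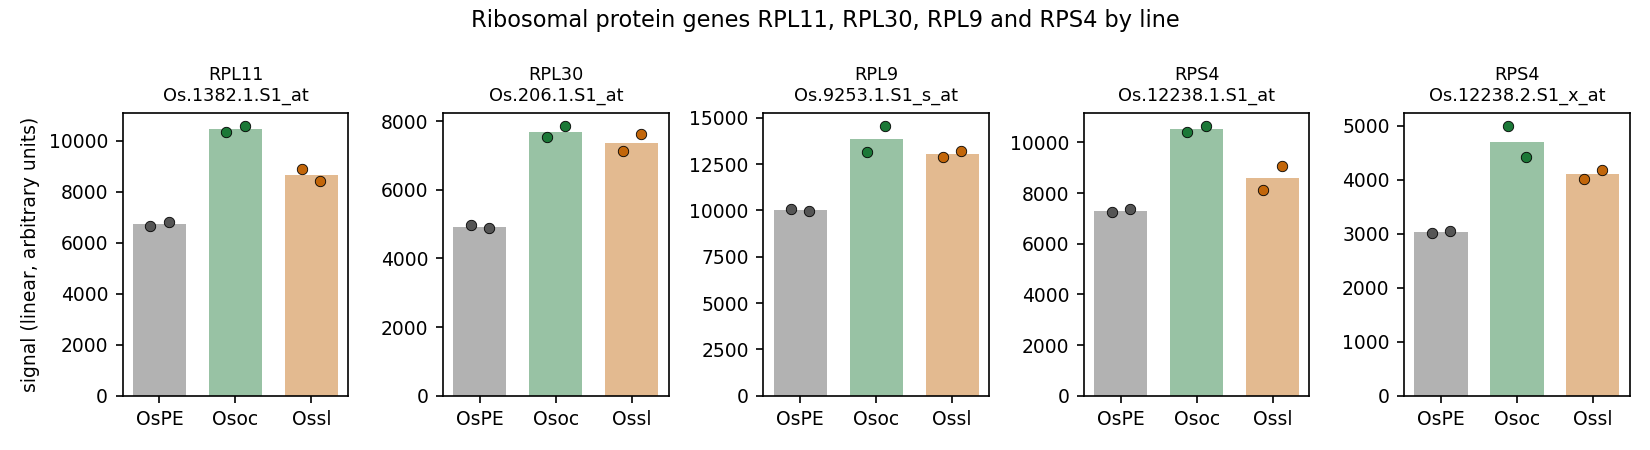
Signal (linear, arbitrary units) of the probe sets of RPL11, RPL30, RPL9 and RPS4 in the OsPE, Osoc and Ossl lines, with bars for the mean of 2 arrays and points for the arrays. In every panel both OsPE arrays lie lowest, and Osoc and Ossl overlap for RPL30 and RPL9.

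QM1 encodes ribosomal protein L10 of the large subunit, which is loaded late in subunit assembly and lies beside the site where transfer RNA is held. Its 4 probe sets did not move together. On its brightest, an _s_at set, the signal was 18544 and 17523 in OsPE, 19769 and 18866 in Osoc, and 20488 and 20147 in Ossl, so Ossl lay highest and OsPE lowest with no overlap. On the log2 scale Osoc was 0.10 ± 0.05 (SE) above OsPE, Ossl was 0.17 ± 0.05 above OsPE, and Ossl was 0.07 ± 0.05 above Osoc.

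The second bright probe set of QM1, an _x_at set, had the same order, with 6978 and 7067 in OsPE, 7198 and 7673 in Osoc, and 8513 and 7930 in Ossl. That suffix marks probes that also match other sequences. The third, an _at set, read 6192 and 5935 in OsPE, 6728 and 6778 in Osoc, but 1606 and 1442 in Ossl. On this probe set the log2 difference of Ossl from OsPE was -1.98 ± 0.07 (SE) and that from Osoc was -2.14 ± 0.07, with the Ossl arrays far below all others, while Osoc was 0.16 above OsPE. The fourth, a dim _at set, lay between 17.1 and 66.3 on all arrays, near the arrays' 40th percentile of 22.5 to 26, and carries no direction.

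For QM1, the direction in Ossl therefore depended on the probe set, and none is given for the gene. The range of the log2 differences over its tested probe sets was 2.26 in Ossl against OsPE and 2.28 in Ossl against Osoc, but 0.23 in Osoc against OsPE. Over the 561 genes with at least 2 probe sets of mean signal 1000 or more, the median range was 0.13 in Ossl against OsPE, and 1 gene, QM1 itself, reached the 2.21 of its bright sets. In Ossl against Osoc 2 such genes reached the 2.28 of QM1. The third set is tied to QM1 by its gene number alone, while the table gives each of the other 3 an accession as well. Probe sequences were not used here, so whether the third set reads QM1 was not tested.

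**Figure D2:**
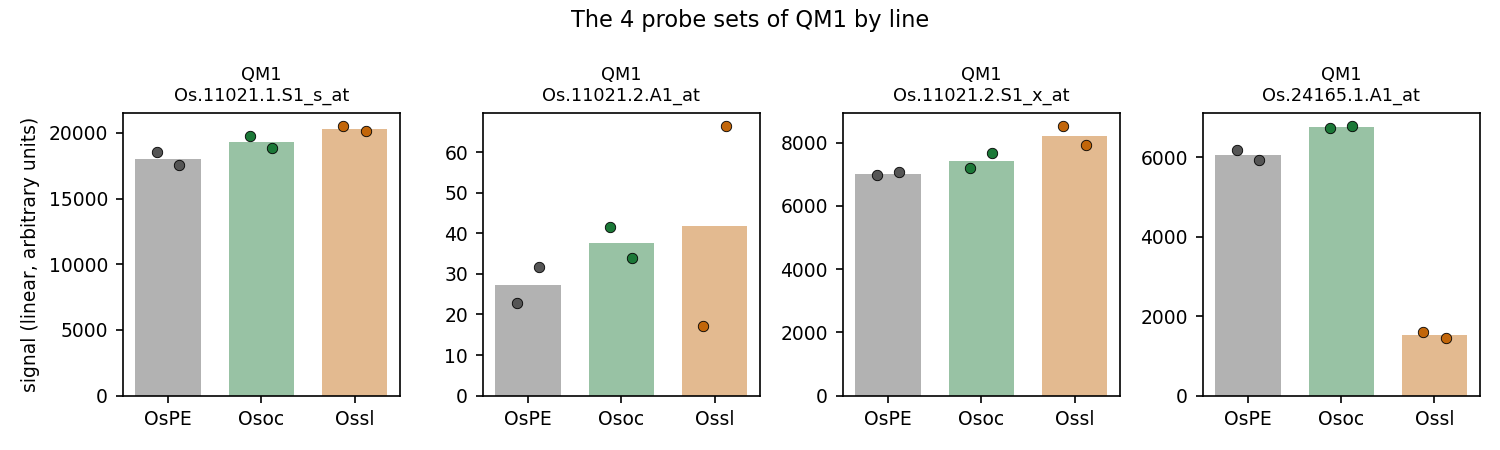
Signal (linear, arbitrary units) of the 4 probe sets mapped to QM1 in the 3 lines, with bars for the mean of 2 arrays and points for the arrays. The bright _at set is at 1606 and 1442 in Ossl against 5935 to 6778 in the other lines, while the 2 other bright sets are highest in Ossl.

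Counted by limma's moderated test across the whole array, with Benjamini-Hochberg adjusted p below 0.05 over 39629 probe sets, 5 of the 9 probe sets were higher in Osoc than in OsPE, where 3.61% of all probe sets were, and 0 were lower, against 3.85% of all. In Ossl against OsPE 6 of the 9 were higher, against 4.11% of all, and the bright _at set of QM1 was lower, against 3.81% of all. In Ossl against Osoc 0 of the 9 were higher, against 5.93% of all, and 3 were lower, against 5.27% of all: RPL11, RPS4 on its brighter set, and QM1 on its bright _at set. As the genes were picked from these comparisons, shares above those of all probe sets can come from the choice alone. The counts are a description only and test nothing about these genes.

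To place the 5 genes, all genes with a cytosolic ribosomal protein symbol or synonym were read, which gave 24 genes with 38 probe sets, 11 of the large and 13 of the small subunit. The brightest probe set of a gene stood for it, and all 24 genes passed the filter on low signals, as did all 9 probe sets of the 5 genes. The 19 other genes were listed by name, not by signal, although earlier results for such a list were known.

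In Osoc against OsPE, 20 of the 24 genes rose, none fell (0) and 4 were not called, and without the 5 it was 16, 0 and 3 of 19 (limma, adjusted p below 0.05). At an unadjusted p below 0.05 the numbers were 23 and 0. Of all 16460 genes by their brightest probe set, 5.77% rose and 6.14% fell at the adjusted threshold. At the unadjusted one 2085 of them rose and 2595 fell. The median log2 difference was 0.37 over the 24 genes and 0.35 over the 19, against -0.04 over all genes, and every one of the 24 had both Osoc arrays above both OsPE arrays, which held for 25.2% of all genes. Among the tenth of probe sets with the highest mean signal, which hold 23 of the genes (all but RPS10-1), 15.9% rose and the median was 0.03.

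Of the small subunit, the signal of rps20, whose protein lies in the head of the small subunit, was 5101 and 5051 in OsPE against 7178 and 7148 in Osoc, a log2 difference of 0.50 ± 0.06 (SE; limma adjusted p = 0.000264). RACK1A, the scaffold protein of the small subunit that docks signalling kinases, went from 5492.5 and 5961.5 to 8096 and 7593 (0.45 ± 0.07, adjusted p = 0.00152). RPS7 rose by 0.41 (adjusted p = 0.000661). Without the 5 genes, 10 of 12 small-subunit and 6 of 7 large-subunit genes rose. Of all genes 5.77% rose, and of the tenth of probe sets with the highest mean signal 15.9%.

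Of the large subunit, RPL5A, the partner of RPL11 in assembly, rose from 5014 and 5356 to 6962 and 7228 (0.45 ± 0.06, adjusted p = 0.000954), and RPL39C, of the tunnel through which the new chain leaves, from 8527 and 8442 to 10861.5 and 11735 (0.41 ± 0.06, adjusted p = 0.000963). The 4 genes that did not pass were QM1, RPL39B, RPS10-1 and RPS21. RPL39B differed by 0.17 (adjusted p = 0.0601), RPS10-1 by 0.23 (adjusted p = 0.0938) and RPS21 by 0.15 (adjusted p = 0.172). A second bright set of RPL39B, at 11846 to 15170, did pass, with a rise of 0.27 (limma adjusted p = 0.0165).

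In Ossl against OsPE, 16 of the 24 genes rose, none fell (0) and 8 were not called, and without the 5 it was 12, 0 and 7 of 19 (limma, adjusted p below 0.05), while 6.99% of all genes rose and 4.7% fell. At an unadjusted p below 0.05 the numbers were 22 and 0 of 24. Of all 16460 genes 2436 rose at that unadjusted threshold, and fewer fell. The median log2 difference was 0.22, against -0.01 over all genes, and 22 of the 24 had both Ossl arrays above both OsPE arrays, which held for 28.2% of all genes. In the tenth of probe sets with the highest signal 13.5% rose and the median was 0.03. RPS26 rose from 3931 and 3999.6 to 4722 and 4826 (0.27 ± 0.06, adjusted p = 0.0155), and RPL7A-2 from 6753 and 6583 to 8107 and 7908 (0.26 ± 0.05, adjusted p = 0.0101). RPL5A, RACK1A and RPS27AB, the last of which is made as a fusion with ubiquitin, rose by 0.26, 0.26 and 0.24 (adjusted p = 0.0238, 0.0356 and 0.0155). RPS10-1 alone had a negative difference, -0.04 (adjusted p = 0.828).

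In Ossl against Osoc, 8 of the 24 genes fell, 0 rose and 16 did not pass, and without the 5 it was 6, 0 and 13 of 19 (limma, adjusted p below 0.05), while 6.99% of all genes fell and 10.1% rose. At an unadjusted p below 0.05 the numbers were 15 fallen and 0 risen of 24, and 2340 fallen and 3089 risen of all 16460 genes. The median log2 difference was -0.16, against 0.02 over all genes, and 17 of the 24 had both Osoc arrays above both Ossl arrays, which held for 26.4% of all genes. In the tenth of probe sets with the highest signal 16.6% fell and the median was -0.01. RPS10-1 fell from 2240.3 and 2242 in Osoc to 1806 and 1891 in Ossl (-0.28 ± 0.08, adjusted p = 0.0358), and RPL39C to 9262 and 9462 (-0.27 ± 0.06, adjusted p = 0.0088). For rps20, RPL3A, a protein close to the catalytic centre, and RPS3A the differences were -0.27, -0.22 and -0.20 (adjusted p = 0.00892, 0.0319 and 0.0421).

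These counts rest on the variance being modelled as a trend of the signal. Without that trend limma called 0 of the 24 genes in each of the 3 comparisons, with the smallest adjusted p at 0.126, 0.101 and 0.244. At an unadjusted p below 0.05 it then gave 18 higher genes in the first comparison, 5 higher in the second and 5 lower in the third. The share of all genes at that threshold without the trend was not computed, so these counts cannot be set against it. In each setting named next, fewer probe sets of the whole array were called as well. Those numbers are given with the dependence on processing. The count for Ossl against OsPE was 3 without OsPE replicate 1 or OsPE replicate 2, 9 without Ossl replicate 2, and 3 after median centring of the arrays. The count for Ossl against Osoc was 0 without Osoc replicate 2, 2 without Osoc replicate 1, and 4 without either OsPE array or without Ossl replicate 1.

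**Figure D3:**
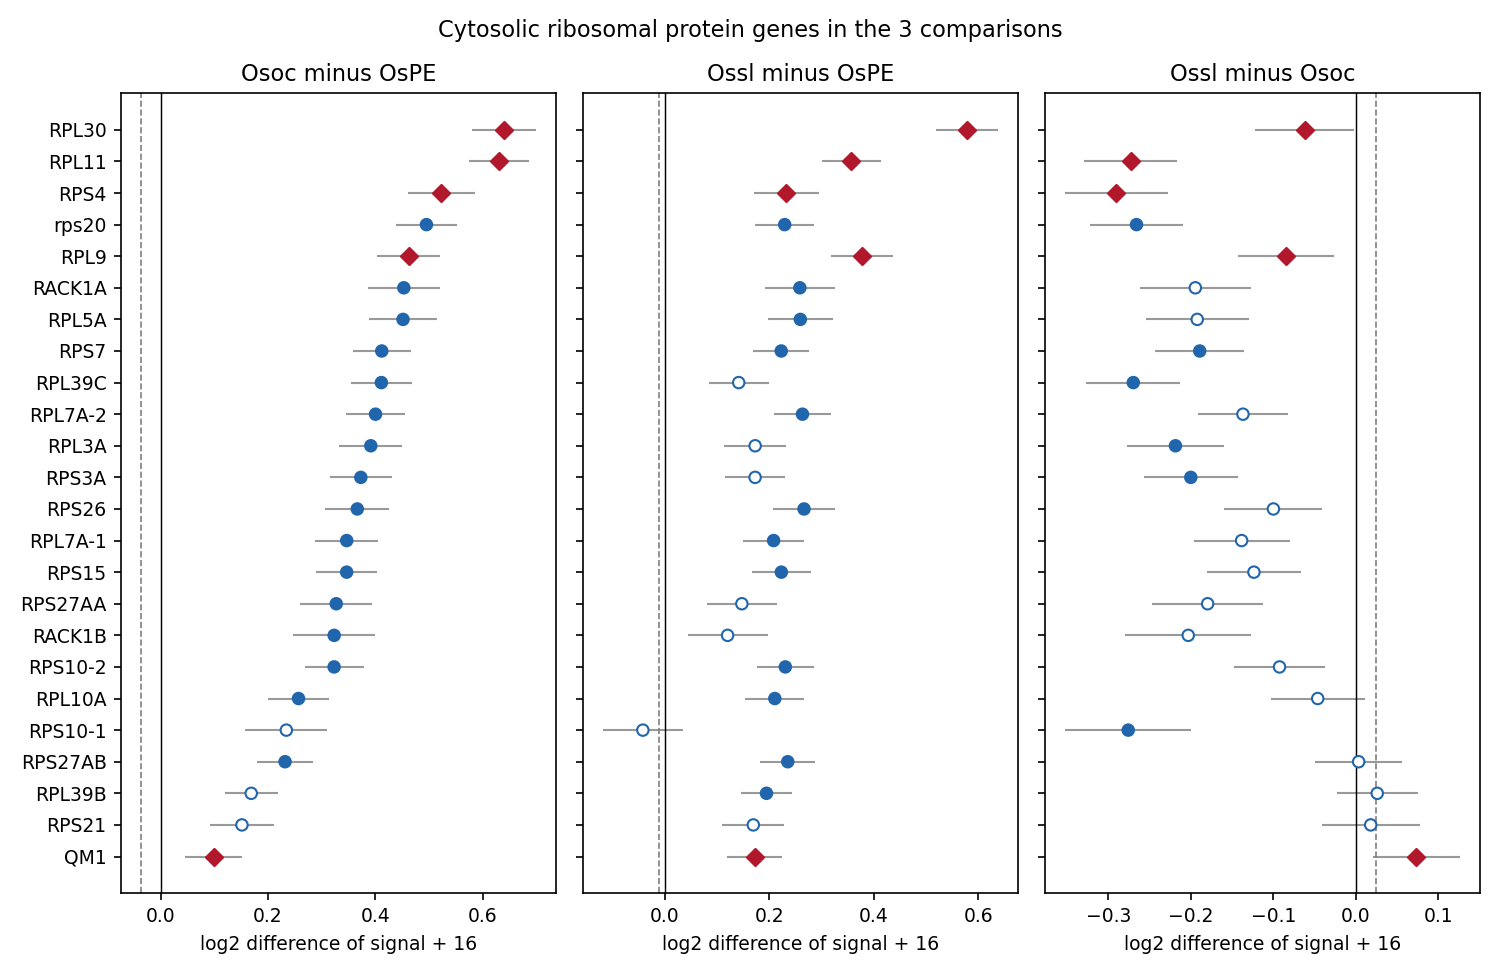
Log2 difference of signal + 16 (x axis, with the standard error of limma's fit) for 24 cytosolic ribosomal protein genes in the 3 comparisons. Red diamonds are RPL11, RPL30, RPL9, RPS4 and QM1 (no test shown), filled blue circles are other genes with adjusted p below 0.05, open ones did not pass, and the dashed line is the median of all genes; all 24 differences of Osoc minus OsPE lie above 0.

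The order of the lines was largely shared. For 15 of the 24 genes both Osoc arrays lay above both Ossl arrays and these above both OsPE arrays, among them RPL11 and RPS4, and without the 5 this held for 13 of 19. Of all genes 3.25% had that order, as had 2.39% of all probe sets (3 of the 9 here) and 7.77% of the tenth of probe sets with the highest mean signal. RPL30, RPL9 and QM1 were among the 9 exceptions. After subtraction of each gene's mean, the median of the 24 genes was -0.19 on both OsPE arrays, 0.17 on both Osoc arrays, and 0.02 and 0.06 on Ossl replicate 1 and Ossl replicate 2.

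**Figure D4:**
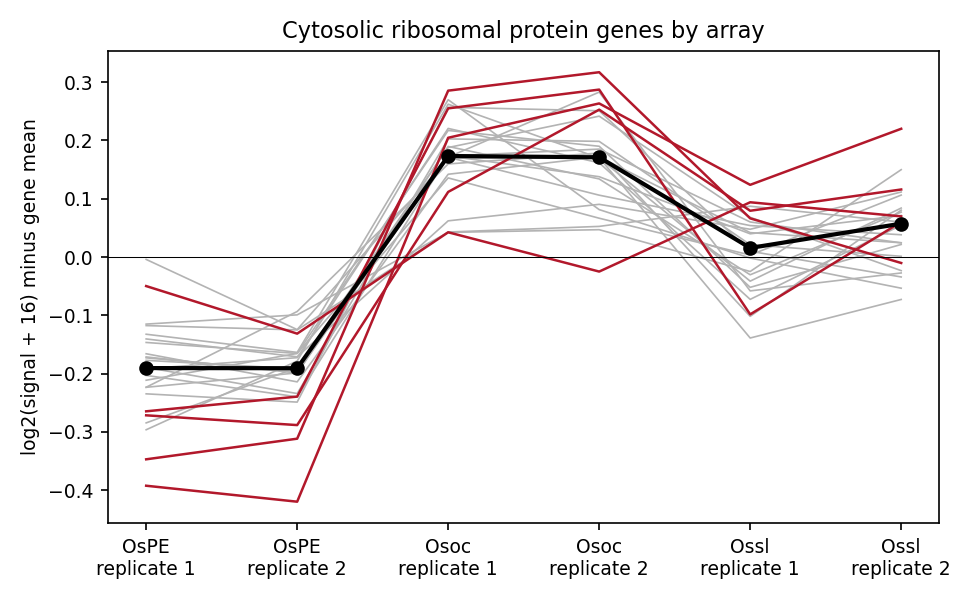
Log2(signal + 16) minus the gene's own mean (y axis) on each of the 6 arrays for 24 cytosolic ribosomal protein genes, 1 line per gene, with RPL11, RPL30, RPL9, RPS4 and QM1 in red and the median in black. The median is -0.19 on both OsPE arrays and 0.17 on both Osoc arrays, with the Ossl arrays between.

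The 3 lowest log2 differences, between Osoc and OsPE, of QM1, RPS21 and RPL39B, came from probe sets that read 15145 to 25462 on all arrays. Across the 24 genes, which share the same arrays and scaling, Spearman's rho of mean signal with the difference was -0.355 in Osoc against OsPE, -0.174 in Ossl against OsPE and 0.516 in Ossl against Osoc. The part of signal height in the differences was not tested.

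Second probe sets of the listed genes mostly followed the brightest in direction, with 3 exceptions in Osoc against OsPE. RPL10A rose by 0.26 on its bright set (adjusted p = 0.0159) and fell by 1.26 on a dim one at 44.7 to 214.5 (-1.26, adjusted p = 0.0232). RPS3A had 3 sets between 0.37 and 0.50 and a dimmer one at -0.15 (adjusted p = 0.464). RPS21 had 2 bright sets at 0.15 and 0.11 and a dim one at -0.97 (adjusted p = 0.0914). In Ossl against Osoc the probe sets of RPL10A, RPS3A and RPS21 differed too. The dim set of RPL10A rose by 1.42 (adjusted p = 0.00841) with its bright set at -0.05, and the dimmest set of RPS3A was at 0.32 (adjusted p = 0.0664) with its brightest at -0.20. The second bright set of RPS21 rose by 0.28 (adjusted p = 0.0345), while its brightest differed by 0.02 (adjusted p = 0.908).

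Other parts of the translation machinery were read from short lists. Of 8 translation factor genes 3 rose and 0 fell in Osoc against OsPE (limma, adjusted p below 0.05), where 5.77% of all genes rose and 6.14% fell, and the median log2 difference was 0.14, against -0.04 over all genes. The RNA helicase gene eIF-4A-1 rose by 0.43 (adjusted p = 0.00314), the elongation factor gene EF-1-beta by 0.29 (adjusted p = 0.00809) and the initiation factor gene eIF3k by 0.33 (adjusted p = 0.0197). A dimmer set of eIF-4A-1, at 2382 to 3240, differed by 0.20 (limma adjusted p = 0.302). EF-1-alpha, not called on its brightest set, rose by 0.36 on its other one (limma adjusted p = 0.00274). In Ossl against OsPE 3 of the 8 rose and 0 fell, where 6.99% of all genes rose and 4.7% fell. In Ossl against Osoc 0 rose and 1 fell, where 10.1% rose and 6.99% fell. The scaffold gene of initiation eIF-4G, not called on its brightest set, fell on a dimmer one by 0.84 in Ossl against OsPE (-0.84, adjusted p = 0.000256) and by 0.70 against Osoc (-0.70, adjusted p = 0.000851).

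Of 3 aminoacyl-tRNA synthetase genes, LysRS rose from 2600.3 and 2597 in OsPE to 3580.4 and 3549 in Osoc (0.45, limma adjusted p = 0.0011). HisRS (adjusted p = 0.1635) and MetRS (adjusted p = 0.343) did not pass, and 5.77% of all genes rose. In Ossl against OsPE 0 of the 3 rose or fell, where 6.99% of all genes rose and 4.7% fell. In Ossl against Osoc 1 fell, LysRS (-0.37, limma adjusted p = 0.0024), where 6.99% of all genes fell. RPL18 and RPL27, whose aliases CL18 and CL27 are those of chloroplast ribosomal proteins, differed by 0.17 each in Osoc against OsPE (limma adjusted p = 0.0639 and 0.13). Dimmer sets of RPL27 differed by 0.20 and -0.13 there (limma adjusted p = 0.0879 and 0.557). The dimmest fell in Ossl against OsPE (-0.36, limma adjusted p = 0.0471). RRP46, an exosome subunit that trims ribosomal RNA, differed by 0.10 in Osoc against OsPE (limma adjusted p = 0.653).

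Ribosomal RNA itself was read by 5 control probe sets of the manufacturer, which were outside the tests and were described after their values were seen. Standard labelling starts at the poly-A tail, which most ribosomal RNA lacks. On AFFX-Os_18SrRNA_at the signal was 7611 and 8083 in OsPE, 4049 and 4197 in Osoc, and 7674 and 8022 in Ossl, and on AFFX-OS-18SrRNA_s_at 9439 and 9357, 6157.5 and 6198, and 9642 and 10505. Both sets for this RNA were thus lowest in Osoc, with log2 differences from OsPE of -0.93 and -0.60. In the same line 17 of the 24 ribosomal protein genes had both arrays above those of Ossl, which held for 26.4% of all genes. All 24 had both Osoc arrays above those of OsPE, which held for 25.2% of all genes.

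The large-subunit RNA sets differed from these. AFFX-Os_28SrRNA_at read 7582 and 7359 in OsPE, 5577 and 5551 in Osoc, and 5601 and 5717 in Ossl, and AFFX-OS-25SrRNA_s_at read 2088.5 and 2322, 2229 and 2188, and 1203 and 1322. The fifth, AFFX-OS-5.8SrRNA_at, overlapped between lines at 117 to 219. The part of these RNAs, or of the amount of ribosomal RNA carried through labelling, in the signals of the protein genes was not tested.

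The poly-A control RNAs, which are added during preparation, were lower in Ossl. The mean log2(signal + 16) of the 12 sets at their 5′ ends was 7.75 and 7.72 on the Ossl arrays against 8.86 to 9.10 on the others, and of the 12 sets at their 3′ ends 9.89 and 9.85 against 10.34 to 10.42. The log2 ratio of the 3′ to the 5′ signal of GAPDH lay between 2.92 and 3.20 on all arrays, so the 3′ signal was much the higher. For another control gene, Cyph, this ratio lay between 0.73 (OsPE replicate 1) and 1.37 (Ossl replicate 2). The part of these control RNAs' difference in the comparisons with Ossl was not tested.

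**Figure D5:**
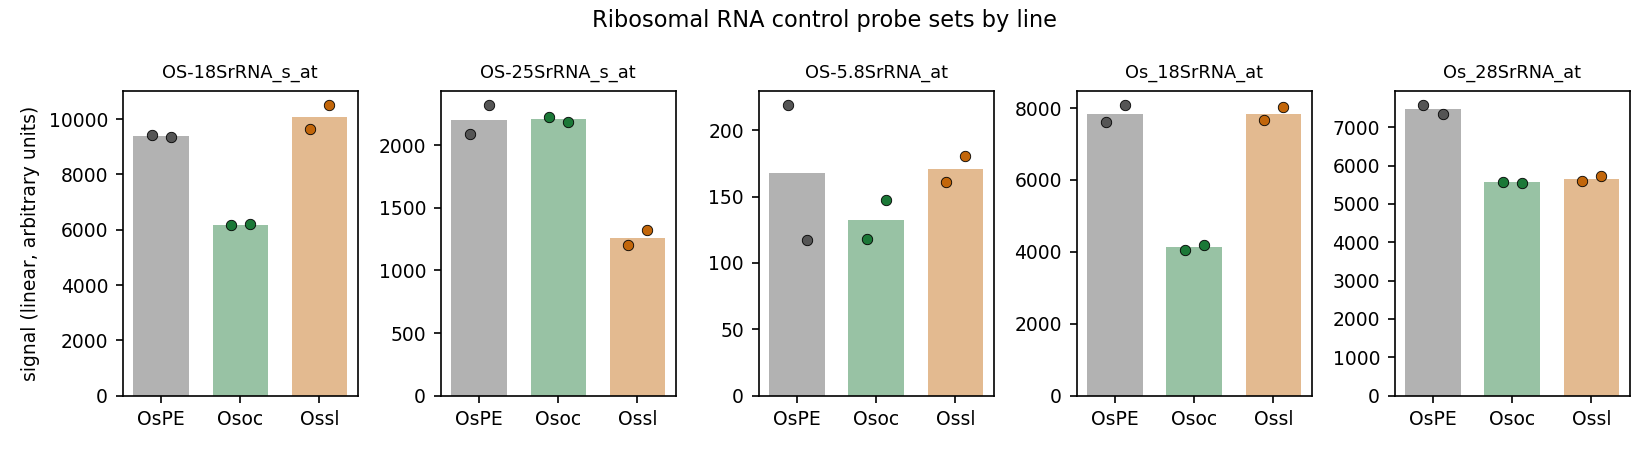
Signal (linear, arbitrary units) of 5 ribosomal RNA control probe sets in the 3 lines, with bars for the mean of 2 arrays and points for the arrays. Both sets for the small-subunit RNA are lowest in Osoc, at 4049 to 4197 and 6157.5 to 6198.

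Among 2290 other named genes, those whose 6 centred array values were closest to a member's brightest probe set were found by the root mean square difference on the log2 scale. For RPL11 they were rps20 at 0.065, PRIN2 at 0.069 and Os60SP0p at 0.071, a name that stands for a large-subunit protein and that the list's patterns did not match. Os60SP0p read 3949 and 3837 in OsPE, 5378 and 5422 in Osoc, and 4704.5 and 4513 in Ossl.

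For RPL30 the closest were IAA2 at 0.064, DAHPS2 at 0.074 and TK at 0.085, and for RPL9 APX7 at 0.035, DAHPS2 at 0.045 and ABCI12 at 0.053. For RPS4 they were HO2 at 0.042, wsl6 at 0.046 and CIPK14 at 0.055, and for the brightest set of QM1 D14 at 0.027, TBP2 at 0.029 and CBL3 at 0.030. Of the 15 closest pairs 1, rps20 with RPL11, lay within the list of 24, and 19 of the 2290 genes searched were on that list. Os60SP0p, a large-subunit name outside the list, was in another of the 15.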

How the data were processed

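Seedling RNA of 3 rice lines was hybridized to an Affymetrix rice array, 2 arrays per line, from 8 µg of total RNA per the labels. The values the authors deposited are signal intensities on a linear scale, processed with GCOS 1.2 per the submitters' processing notes. No source used here names the algorithm. Each array's mean without the lowest and highest 2% was 500.07 or 500.08, so the scaling was kept. The number of arrays limits the precision.

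The 123 control probe sets were left out of the tests. Of 57258 probe sets, 39629 were tested, those with a signal over the array's 40th percentile on 2 or more arrays. Differences of log2(signal + 16) were tested with limma 3.58.1 in R 4.3.3 (all 6 arrays, variance as a trend of the mean, two-sided, Benjamini-Hochberg adjusted p below 0.05; 3 residual and 8.98 prior degrees of freedom). The procedure was run on simulated data whose noise followed the fitted variance trend exactly, so that run cannot check the trend itself. Figures used Python 3.11.15 and matplotlib 3.10.9. Folds understate changes at low signals. Per the labels the 2 arrays of a line are biological replications. The p-values rest only on the spread between such arrays, that of the probe set itself and that of others at like signal.

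Probe sets were named through the probe-to-gene table and gene synonyms of assembly ASM3414082v1; 22436 matched 1 gene and 95 several. The labels give Basmati and Oryza sativa Indica Group, and probe mismatches could not be checked. The genes and lists were chosen with earlier results of these data known. The rule for named genes took, besides the 5, the 5 listed genes per comparison and direction with the largest called difference, up to 3 genes per further list, and the 3 most alike named genes per member. Its part on related proteins was not run, as protein sequences were not used here. Names that matched by letters alone, rps14 and a gene named rpl5 of unsettled compartment were removed, and RPL18 and RPL27 moved to the chloroplast list. The synthetase names were added when the tables were seen. Alternatives were other offsets, scalings, filters, variance models and thresholds, the replicate number as a block, only the lines compared, each array left out, and averaging the probe sets of a gene. The tenth with the highest signal, the ribosomal RNA controls and the list without the 5 genes were taken up after the data were seen.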

Additional observations from a re-analysis of the deposited data

How the results depend on the processing

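The median log2 difference of the 24 genes kept its sign under every alternative run. By construction, other filters, the replicate block, only the lines compared, and an array left out of the line not compared did not change this median. It lay between 0.3552 and 0.388 in Osoc against OsPE, between 0.1997 and 0.2377 in Ossl against OsPE, and between -0.1659 and -0.1321 in Ossl against Osoc when each array was left out. With quantile normalization the 3 medians were 0.3172, 0.1788 and -0.1283, with median centring the last was -0.1838, and without the 5 genes the first was 0.3469 and the last -0.1797, the latter chosen after seeing the data. The number of the 24 genes called ranged from 14 to 22, 3 to 13 and 0 to 7 over the arrays left out, against 20, 16 and 8 with all arrays. In Ossl against OsPE it was 10 with quantile normalization, 3 with median centring, 5 without the filter and 10 with only the lines compared. Of all tested probe sets 7.91%, 5.96%, 3.78% and 7.33% were called in these settings. At adjusted p below 0.01 the count was 3. In Ossl against Osoc the count was 3 with median centring, 4 without the filter and 4 with only the lines compared. There 8.71%, 5.81% and 10.2% of all tested probe sets were called. The count was 4 at the stricter threshold. Without the variance trend it was 0 in all 3 comparisons. Over all probe sets 28, 382 and 402 were then called, and 1398, 1598 and 2323 at adjusted p below 0.01, against 2955, 3138 and 4441. Over the arrays left out these numbers ranged from 1201 to 3278, 1495 to 2781 and 2342 to 3787. The stricter threshold lowers a count by construction, and for the other settings the cause was not tested. With the replicate number as a block 20, 14 and 6 genes were called. Over all tested probe sets same-numbered arrays did not deviate together (correlations of 0 to 0.014 between lines). Whether they shared a batch that touched only part of the probe sets was not tested. Of 375 recomputed differences of the 9 probe sets 371 kept their sign, and the other 4 were those of the dim _at set of QM1. The 375 include the settings named above that cannot change a difference. Those kept the sign by construction, so 371 overstates how stable the signs were.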
